A study of Mus musculus with 6 samples.

Results

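The BMP, TGF-beta and activin pathway is described here in cultured mouse cerebellar granule neurons (CGNs), the excitatory neurons that make up most cells of the cerebellum. It was taken as 42 named genes of the 55341 listed in the count tables, chosen by symbol for their place in the pathway. They comprise 10 ligands, 11 receptors, 8 Smad genes, 9 modulators of ligand or receptor activity and the 4 Id genes as transcriptional targets. All 42 were found, and all 42 were among the 16729 genes that passed the filter on low counts.

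CGNs were prepared from the cerebella of CD1-IGS pups (P6-P8), with the tissue of litters pooled for a replicate and granule neuron precursors enriched on a Percoll gradient. All cultures received cytosine arabinoside to stop division of non-neuronal cells. The labels give 3 libraries of cultures with DMSO, the vehicle, and 3 of cultures with GSK-126. This drug blocks EZH2, the enzyme of Polycomb complex PRC2 that trimethylates lysine 27 of histone H3. The tissue label is cerebellum, while the titles name CGNs. The label day, DIV3 (day 3 in vitro), is by the study's methods the day on which the drug was added, and RNA was collected at DIV5. No altered allele is named for either group, and the dose used at DIV3 is not given in the sources used here. RNA was taken from the whole culture, so each value is an average over the cell types present.

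Ligands of this superfamily are secreted dimers. They bring together type II and type I receptor kinases, and the type I receptor then phosphorylates a receptor Smad, which joins Smad4 and enters the nucleus. BMPs act mainly through Smad1, Smad5 and Smad9, and TGF-betas and activins through Smad2 and Smad3. In the developing cerebellum, BMPs from the roof plate help to specify granule neuron precursors and later oppose their proliferation in response to Sonic hedgehog. Secreted antagonists such as Noggin and Follistatin bind ligands outside the cell, several latent TGF-beta binding proteins hold TGF-beta in the matrix, and the inhibitory Smads, Smad6 and Smad7, feed back on the receptors.

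Counts on genes ranged from 7407189 to 13092763 per library. Levels are given as CPM, counts relative to the size of the library, scaled by TMM factors, and the libraries of both groups were paired by the replicate number in their labels, since a library resembled the library of the other group with the same number. Calls are from edgeR's quasi-likelihood test with this number as a block, at a Benjamini-Hochberg adjusted p under 0.05 over all 16729 genes. The biological coefficient of variation was 9.74% with the block and 24% without it. Without the block, edgeR called 0 of the 16729 genes, and 665 genes, or 3.98%, had an unadjusted p under 0.05, so every call below rests on the pairing. The granule neuron genes Zic1, Cbln1 and Neurod1 stood at means of 1558, 944 and 694 CPM with DMSO, and the fibroblast collagen genes Col1a1 and Col3a1 at 2970 and 2482 CPM, so the libraries named for CGNs also held much RNA of other cells.

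With GSK-126, 7 of the 42 genes rose and 0 fell. The genes that rose were 4 ligand genes (Bmp4, Tgfb1, Tgfb2 and Inhba), the latent TGF-beta binding protein gene Ltbp2, and the targets Id2 and Id4. Over all genes tested, 3.35% were called higher and 5.09% lower, 561 and 851 genes. With upper-quartile scaling the calls over all genes split 727 higher to 698 lower, and with total counts 714 to 707, and 7 and 8 members were called higher, the eighth being Fstl1. At an unadjusted p under 0.05 in the same fit, 16 members were higher (9.43% of all genes) and 2 lower (12.1% of all genes). The median log2 fold change of the 42 members was 0.18, against -0.01 over all genes tested, and 31 members had a value above 0, against 49.1% of all genes. The level was higher with GSK-126 in all 3 pairs for 21 members (19.5% of all genes) and lower in all 3 pairs for 4 members (22.8% of all genes).

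The calls were not equally firm. DESeq2 with the same block called 3 of the 7, Inhba, Ltbp2 and Tgfb1, and 0 members lower. It gave no adjusted p for 4 members, Bmp2, Nog, Grem1 and Fst, so these could not be called by it. Inhba and Ltbp2 were also called whichever pair was left out, whereas 3, 3 and 6 of the 7 genes were called without pair 1, pair 2 and pair 3. Without the block, the adjusted p of the 42 members lay between 0.953 and 0.997, and 1 member, Nog, had an unadjusted p under 0.05. Groups did not overlap for 5 members. Of these, Smad2, Nog, Bambi and Id2 were higher with GSK-126 (4.72% of all genes) and Acvr2b was lower (also 4.72% of all genes).

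**Figure D1:**
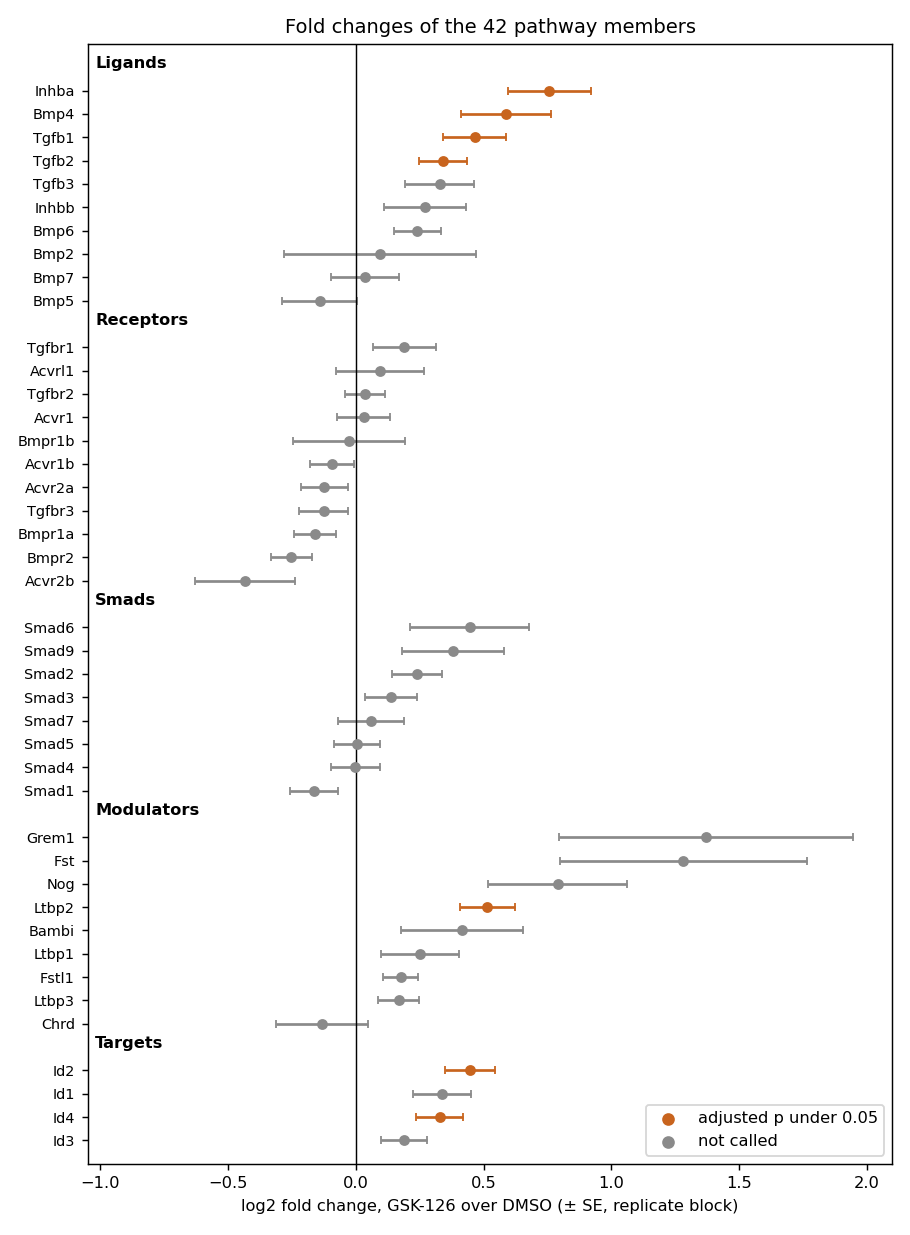
Log2 fold change of each of the 42 members, GSK-126 over DMSO, with its standard error from the fit with the replicate block (3 libraries a group), sorted within each role. The 7 genes in orange were called at an adjusted p under 0.05, all to the right of 0, and no receptor or Smad gene is among them.

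Among the ligands, 4 of 10 rose, 0 fell and 6 did not pass the test, with a median log2 fold change of 0.30. Inhba encodes the activin A subunit (ENSMUSG00000041324.14, GRCm38 chromosome 13, 16011851 to 16031621, plus strand). It stood at 6.34, 24.7 and 17.5 CPM in DMSO replicates 1 to 3 and at 15.2, 31.6 and 30.7 CPM in the GSK-126 libraries with the same numbers. The groups overlapped, because replicate 1 was lowest in both, but each GSK-126 library lay above its partner. The fold change was 1.69 (log2 0.76, SE 0.16, adjusted p = 0.00494, edgeR). The related subunit gene Inhbb, of activin B, had a log2 fold change of 0.27 (SE 0.16, adjusted p = 0.347, edgeR) and was higher in 2 of 3 pairs.

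Bmp4, a BMP ligand long studied in dorsal neural patterning (ENSMUSG00000021835.15, chromosome 14, 46383520 to 46390669, minus strand), was at 13.7, 8.58 and 12.2 CPM with DMSO and at 27.9, 10.7 and 15.6 CPM with GSK-126. Most of its difference came from pair 1, where the log2 ratio was 1.01, against 0.31 and 0.35 in the other pairs. Its fold change was 1.5 (log2 0.59, SE 0.18, adjusted p = 0.0445, edgeR), and without pair 1 its log2 fold change was 0.35 and its adjusted p 0.502. The other 4 BMP ligand genes did not pass the test. Bmp6, expressed at 58.5 ± 7.17 CPM (SD, n = 3) under DMSO and 69.0 ± 5.83 CPM (SD, n = 3) under GSK-126, had a log2 fold change of 0.24 (adjusted p = 0.118, edgeR) and was higher in all 3 pairs. Bmp5 was at -0.14, Bmp2 at 0.09 and Bmp7 at 0.04 on the log2 fold change scale, with standard errors of 0.15, 0.38 and 0.13. Bmp7 varied far more between replicate numbers than with the drug, at 44.6, 13.6 and 17.1 CPM with DMSO and 43.4, 15.5 and 17.0 CPM with GSK-126.

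The 3 TGF-beta ligand genes had like fold changes, and 2 of them passed the test. Tgfb1 (ENSMUSG00000002603.15, chromosome 7, 25687002 to 25705077, plus strand) was at 34.3, 23.3 and 42.9 CPM with DMSO and 52.4, 37.5 and 46.4 CPM with GSK-126, a fold change of 1.38 (log2 0.46, SE 0.12, adjusted p = 0.021, edgeR). Its rise was small in pair 3, at a log2 ratio of 0.11, against 0.61 and 0.68 in the others. Without pairs 1, 2 and 3 in turn the adjusted p of Tgfb1 was 0.114, 0.157 and 0.00068 (edgeR). DESeq2 with the block gave Tgfb1 an adjusted p of 0.0497, just under the threshold. Tgfb2 (ENSMUSG00000039239.14, chromosome 1, 186622792 to 186705989, minus strand) was at 69.2, 30.9 and 49.5 CPM with DMSO and 91.6, 38.2 and 61.2 CPM with GSK-126, with like log2 ratios of 0.40, 0.30 and 0.30 in the pairs. Its fold change was 1.27 (log2 0.34, SE 0.10, adjusted p = 0.0294, edgeR), and its adjusted p lay between 0.0512 and 0.235 when a pair was left out. Tgfb3, at a log2 fold change of 0.33 (SE 0.14, adjusted p = 0.158, edgeR), was also higher in all 3 pairs but was not called.

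**Figure D2:**
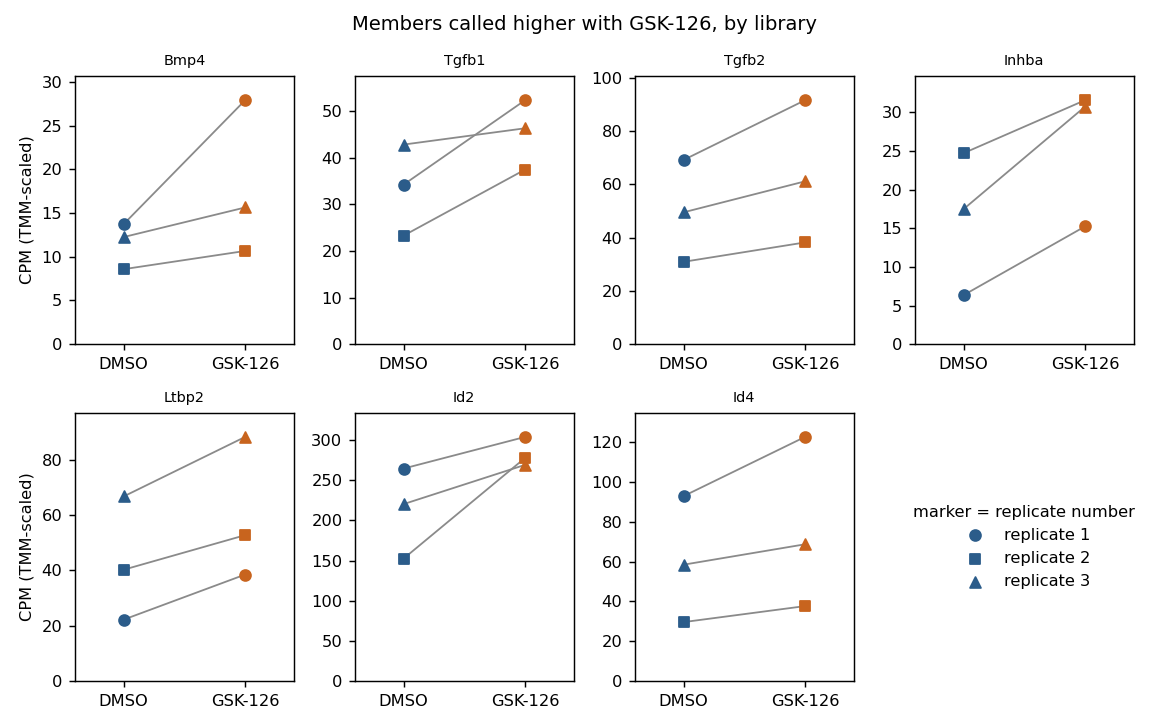
Levels of the 7 called genes in each library, in CPM scaled by TMM factors. Lines join libraries with the same replicate number, and each of the 21 lines rises from DMSO to GSK-126, while the groups overlap for all but Id2.

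None of the 11 receptor genes was called in either direction, where 3.35% of all genes were called higher and 5.09% lower. Their median log2 fold change was -0.09. Of the receptor genes 7 lay below 0 and 4 above it. An unadjusted p under 0.05 was seen for a higher level in 0 of them (9.43% of all genes). It was seen for a lower level in 2, Bmpr2 and Acvr2b (12.1% of all genes). DESeq2 with the block also called 0 of them. Bmpr2, the main type II receptor for BMPs, was at 196, 252 and 224 CPM with DMSO and 174, 181 and 207 CPM with GSK-126. Each GSK-126 library lay below its partner, and the log2 fold change was -0.25 (SE 0.08, adjusted p = 0.058, edgeR). It was called without pair 3 (adjusted p = 0.033) and when no filter on low counts was used.

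Acvr2b, a type II receptor for activins, was at 8.88, 13.2 and 10.9 CPM with DMSO and 7.50, 8.62 and 8.01 CPM with GSK-126, a log2 fold change of -0.43 (SE 0.19, adjusted p = 0.197, edgeR). Every GSK-126 library lay below every DMSO library, for which an exact permutation test over 3 against 3 libraries gives at best a two-sided p of 0.1. The TGF-beta receptor genes Tgfbr1 and Tgfbr2 had log2 fold changes of 0.19 (SE 0.12) and 0.04 (SE 0.08), and the co-receptor gene Tgfbr3 of -0.13 (SE 0.10). The type I BMP receptor genes Bmpr1a and Bmpr1b were at -0.16 (SE 0.08) and -0.03 (SE 0.22), and the other receptors (Acvr1, Acvr1b, Acvr2a and Acvrl1) between -0.12 and 0.09.

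The 8 Smad genes likewise gave 0 calls in edgeR and in DESeq2 with the block, with a median log2 fold change of 0.10. Smad2, a receptor Smad of the TGF-beta and activin branch, was at 46.7, 51.2 and 48.9 CPM with DMSO and 54.0, 57.0 and 62.4 CPM with GSK-126. The groups did not overlap, but the log2 fold change of 0.24 (SE 0.10) did not pass the test (adjusted p = 0.156, edgeR). Its partner Smad3 was at 0.14 (SE 0.10), the shared Smad4 at 0.00 (SE 0.10), and the BMP receptor Smads Smad1 and Smad5 at -0.16 (SE 0.09) and 0.00 (SE 0.09). Smad9 and the inhibitory Smad6 had larger but noisier values, 0.38 (SE 0.20) and 0.44 (SE 0.23), each carried mostly by pair 2, with log2 ratios of 0.89 and 1.12 there. Smad7, the inhibitory Smad of both branches, was at 0.06 (SE 0.13).

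Of the 9 modulators, 1 rose, 0 fell and 8 did not pass the test. Yet 8 of the 9 were higher in all 3 pairs (19.5% of all genes), and the median log2 fold change was 0.42. Ltbp2 encodes a matrix protein of the latent TGF-beta binding protein family that, unlike its relatives, is not known to bind latent TGF-beta (ENSMUSG00000002020.15, chromosome 12, 84783212 to 84876532, minus strand). It was at 22.1, 40.2 and 66.7 CPM with DMSO and 38.4, 52.7 and 88.2 CPM with GSK-126. Replicate 3 was highest and replicate 1 lowest in both groups, and every pair rose. The fold change was 1.43 (log2 0.51, SE 0.11, adjusted p = 0.00385, edgeR), the smallest adjusted p of the 42 genes. The family members Ltbp1 and Ltbp3 were at 0.25 (SE 0.15, adjusted p = 0.362, edgeR) and 0.17 (SE 0.08, adjusted p = 0.238, edgeR) on the log2 fold change scale.

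The 3 largest fitted fold changes belonged to secreted antagonists of low level, and none was called. Nog, for the BMP antagonist Noggin, was at 3.81, 3.36 and 3.22 CPM with DMSO and 7.81, 5.17 and 5.21 CPM with GSK-126, so that every GSK-126 library lay above every DMSO library. Its log2 fold change was 0.79 (SE 0.27, adjusted p = 0.0821, edgeR), from 33, 36 and 37 counts with DMSO and 103, 48 and 39 with GSK-126, and it was called with no filter on low counts. Fst, for Follistatin, which binds activins, had 2, 11 and 22 counts with DMSO and 15, 28 and 23 with GSK-126, with a log2 fold change of 1.28 (SE 0.48, adjusted p = 0.118, edgeR).

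Grem1, for the BMP antagonist Gremlin, had 7, 12 and 1 counts with DMSO and 20, 23 and 7 with GSK-126, and a log2 fold change of 1.37 (SE 0.58, adjusted p = 0.165, edgeR). At counts this low, a difference of this size was not called with 3 pairs. Chrd, for the BMP antagonist Chordin, was the modulator that lay below 0, at -0.13 (SE 0.18). Bambi, for a decoy receptor without a kinase, was at 5.77, 4.10 and 6.87 CPM with DMSO and 7.58, 7.32 and 7.08 CPM with GSK-126, without overlap of the groups, and had a log2 fold change of 0.42 (SE 0.24, adjusted p = 0.339, edgeR). Fstl1, for a secreted protein related to Follistatin, was measured most deeply, at 873 ± 144 CPM (SD, n = 3) under DMSO and 986 ± 165 CPM (SD, n = 3) under GSK-126, and had a log2 fold change of 0.18 (SE 0.07, adjusted p = 0.129, edgeR).

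The Id genes encode helix-loop-helix proteins that hold back differentiation factors and are classical targets of BMP signalling. All 4 were higher with GSK-126 in all 3 pairs (19.5% of all genes). All 4 also had an unadjusted p under 0.05 (9.43% of all genes for a higher level), and 2, Id2 and Id4, were called. Id2 (ENSMUSG00000020644.9, chromosome 12, 25093799 to 25097140, minus strand) was at 265, 152 and 220 CPM with DMSO and 304, 278 and 269 CPM with GSK-126, and the groups did not overlap. Its fold change was 1.36 (log2 0.45, SE 0.10, adjusted p = 0.00536, edgeR). Pair 2 rose most, with a log2 ratio of 0.86 against 0.20 and 0.29, and without it the log2 fold change was 0.25 and the adjusted p 0.0626. DESeq2 with the block gave Id2 an adjusted p of 0.227.

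Id4 (ENSMUSG00000021379.2, chromosome 13, 48261228 to 48266026, plus strand) was at 92.9, 29.6 and 58.4 CPM with DMSO and 123, 37.6 and 68.7 CPM with GSK-126, a fold change of 1.26 (log2 0.33, SE 0.09, adjusted p = 0.0285, edgeR). The pairs rose alike, with log2 ratios of 0.40, 0.34 and 0.23. Without pairs 1, 2 and 3 in turn its adjusted p was 0.264, 0.0557 and 0.0348 (edgeR). DESeq2 with the block gave Id4 an adjusted p of 0.0736. Id1 was at 56.6, 16.7 and 34.7 CPM with DMSO and 66.1, 24.9 and 41.5 CPM with GSK-126, with a log2 fold change of 0.34 (SE 0.11, adjusted p = 0.0779, edgeR). That fold change is close to the one of Id4, with a larger standard error. Id3 was at 185, 57.3 and 146 CPM with DMSO and 198, 80.8 and 148 CPM with GSK-126, with a log2 fold change of 0.19 (SE 0.09, adjusted p = 0.228, edgeR).

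**Figure D3:**
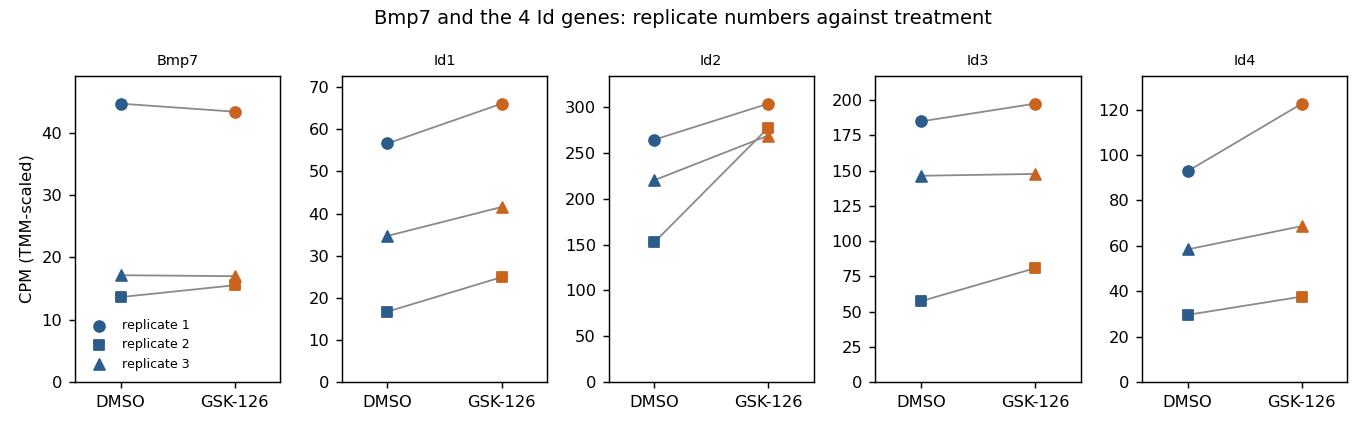
Levels of Bmp7 and the 4 Id genes by library, in CPM scaled by TMM factors, with lines between libraries of the same replicate number. Replicate 1 is highest and replicate 2 lowest in both groups for Bmp7, Id1, Id3 and Id4, and the distance between those replicates is larger than the rise of any line for each gene but Id2.

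Promoter sequence is shown for 4 of the called genes because they hold one of 2 short motifs tied to Smads, GGCGCC, a motif of BMP response elements, or CAGAC, a Smad binding motif (GTCTG on the other strand). RefSeq windows on GRCm38.p6, from 250 bases before to 50 bases after a start, were held for 30 of the 42 genes, in 36 windows. The stretches below run 5′ to 3′ on the gene's strand and hold no exon base of the gene in GENCODE M21, with matches in capitals. The Id2 stretch lies ahead of an exon but inside the annotated gene, since a longer transcript starts further upstream, and the stretches of Tgfb2 and Ltbp2 overlap exons of the antisense transcripts Gm29491 and D030025P21Rik. The stretches are Id2 at chr12:25096254-25096342 (minus strand), Id4 at chr13:48260866-48261115 (plus strand), Tgfb2 at chr1:186705990-186706239 (minus strand) and Ltbp2 at chr12:84876533-84876741 (minus strand).
Id2: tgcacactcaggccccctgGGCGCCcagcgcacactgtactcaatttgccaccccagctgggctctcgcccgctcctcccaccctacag
Id4: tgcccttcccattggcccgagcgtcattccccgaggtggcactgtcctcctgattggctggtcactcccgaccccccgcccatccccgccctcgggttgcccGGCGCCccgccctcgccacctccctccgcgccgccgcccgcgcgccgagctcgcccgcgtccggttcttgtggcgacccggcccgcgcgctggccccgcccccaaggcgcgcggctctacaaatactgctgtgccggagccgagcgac
Tgfb2: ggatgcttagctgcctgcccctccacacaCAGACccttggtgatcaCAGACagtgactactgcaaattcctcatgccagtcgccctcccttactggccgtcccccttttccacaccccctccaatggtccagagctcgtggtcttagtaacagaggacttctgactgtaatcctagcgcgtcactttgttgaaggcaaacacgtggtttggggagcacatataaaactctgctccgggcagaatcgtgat
Ltbp2: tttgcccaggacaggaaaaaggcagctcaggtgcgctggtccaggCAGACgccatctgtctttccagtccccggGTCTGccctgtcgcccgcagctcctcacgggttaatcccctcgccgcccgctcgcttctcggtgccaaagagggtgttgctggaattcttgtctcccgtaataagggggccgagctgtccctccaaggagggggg

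In these stretches Id2 and Id4 each hold 1 GGCGCC and no CAGAC, and Tgfb2 and Ltbp2 each hold 2 CAGAC matches on either strand and no GGCGCC. The first motif, which reads the same on both strands, was in 11.9% of the 32851 RefSeq windows and in 11 of the 36 member windows, and CAGAC or GTCTG in 49.6% of all windows and 17 of the member windows. The windows of the called genes Bmp4, Tgfb1 and Inhba held neither motif. Members not called held GGCGCC as well, namely Acvr1b, Bmpr1a, Bmpr2, Chrd, Grem1, Smad5, Smad9 and Tgfbr1. CAGAC or GTCTG was also in windows of many members not called, among them Acvr2a, Acvr2b, Bmp5, Bmp6, Ltbp1, Tgfbr2 and Id3, which held 2 matches. The member windows were rich in CG dinucleotides, with a median of 24 against 7 over all windows, and ranged among the called genes from 7 for Inhba to 39 for Id4. These matches describe letters in a window and were not measured for binding.

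The members spanned a wide range of levels. Per kilobase of annotated exon and averaged over the 6 libraries, Fstl1 led at 189 CPM per kb, followed by Id2 at 102, Id3 at 75.8 and Id1 at 34.6. Bmpr1a at 25.2, Smad4 at 23.2 and Acvr1b at 22.1 CPM per kb came next, and Bmp6, at 16.3, was the ligand gene with the most RNA by this measure. The called ligands were at 9.81 (Tgfb2), 7.82 (Tgfb1), 6.58 (Bmp4) and 3.29 CPM per kb (Inhba), and Grem1 and Fst were lowest at 0.279 and 0.378 CPM per kb. Exons of all isoforms were joined for the length, so levels of genes with long alternative ends are understated.

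Replicate number moved many members more than the drug did. The range of the 3 pair means had a median of 0.60 log2 units over the 42 genes, against a median size of 0.21 for the fold change, and over all genes these were 0.41 and 0.17. These are unlike measures, since a range over 3 values tends to be larger than a single difference. Among the roles, the 4 Id genes had the widest gap between these medians, 1.53 for the range against 0.33 for the fold change. Id2 alone had no such gap, with a range of 0.46 and a log2 fold change of 0.45. The same replicate number was highest in both groups for 33 of 42 members and for 59.3% of all genes. It was replicate 1 for 15 members (35.7%, against 19.5% of all genes), Bmp4, Bmp7, Tgfb2, Nog and all 4 Id genes among them. It was replicate 3 for 11 members (26.2%, against 13.2%), among them Tgfb3, Fstl1 and all 3 Ltbp genes, and replicate 2 for 7 (16.7%, against 26.6%), among them Inhba.

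Marker genes of other cell types moved with the replicate numbers and in part with the drug. The summed level of 10 astroglial genes was 8136, 2657 and 4556 CPM with DMSO and 8463, 2569 and 4517 CPM with GSK-126, in the same order as Bmp7, Tgfb2, Id1, Id3 and Id4. This order was not particular to astroglia. The microglial and oligodendrocyte lineage sums, given below, were also highest in replicate 1 and lowest in replicate 2 in both groups. Between the groups the astroglial sum moved little, with GSK-126 to DMSO ratios of 1.04, 0.967 and 0.992, and 1 of its genes, S100b, was called higher. The summed level of 10 pericyte, fibroblast and meningeal genes was 7812, 8395 and 10510 CPM with DMSO and 9734, 9000 and 11470 CPM with GSK-126. It was higher in every pair, at ratios of 1.25, 1.07 and 1.09, with Pdgfrb, Col1a2, Acta2 and Tagln called higher and 0 of the 10 genes lower.

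The summed level of 12 granule neuron genes was lower in every pair, at ratios of 0.776, 0.756 and 0.750, with sums from 4063 to 6797 CPM with DMSO and from 3151 to 5136 CPM with GSK-126. Of them 8 were called lower and Tubb3 was called higher. The largest falls were of Slc17a7 and Gabra6, at log2 fold changes of -1.95 and -1.19. Pax6, Zic2 and Slc17a6 were not called, at -0.07, -0.20 and 0.14. The sum of 8 microglial genes was higher in each pair, at 159 to 342 CPM under DMSO and 216 to 399 under GSK-126. So was that of 8 oligodendrocyte lineage genes, at 433 to 747 and 502 to 762 CPM. C1qa and Mbp were called higher, and Trem2 had 0 counts in all libraries. The oligodendrocyte lineage genes were split, with 5 log2 fold changes above 0 and 3 below it. Sox10 was at -0.44 and lower in all 3 pairs, and Pdgfra and Olig1 were at -0.11 and -0.05. In pair 1 the lineage sum went from 747 to 762 CPM, while Mbp alone went from 332 to 354 CPM. The sum of 7 Purkinje and GABAergic interneuron genes ranged from 206 to 242 CPM with DMSO and from 160 to 193 CPM with GSK-126. Gad1, Gad2 and Slc32a1 were called lower, and Ppp1r17 was near 0 throughout. The 3 other tested genes were not called, with Calb1 at a log2 fold change of 0.45, Pax2 at -0.10 and Pcp2 at -1.10. Neither the 8 endothelial genes (75.0 to 94.6 and 58.8 to 94.8 CPM) nor the 7 genes of proliferating precursors (315 to 424 and 313 to 472 CPM) held a called gene. The part of these lists in the changes of the pathway genes was not tested, and in bulk RNA more cells of a type cannot be told apart from more RNA per cell.

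**Figure D4:**
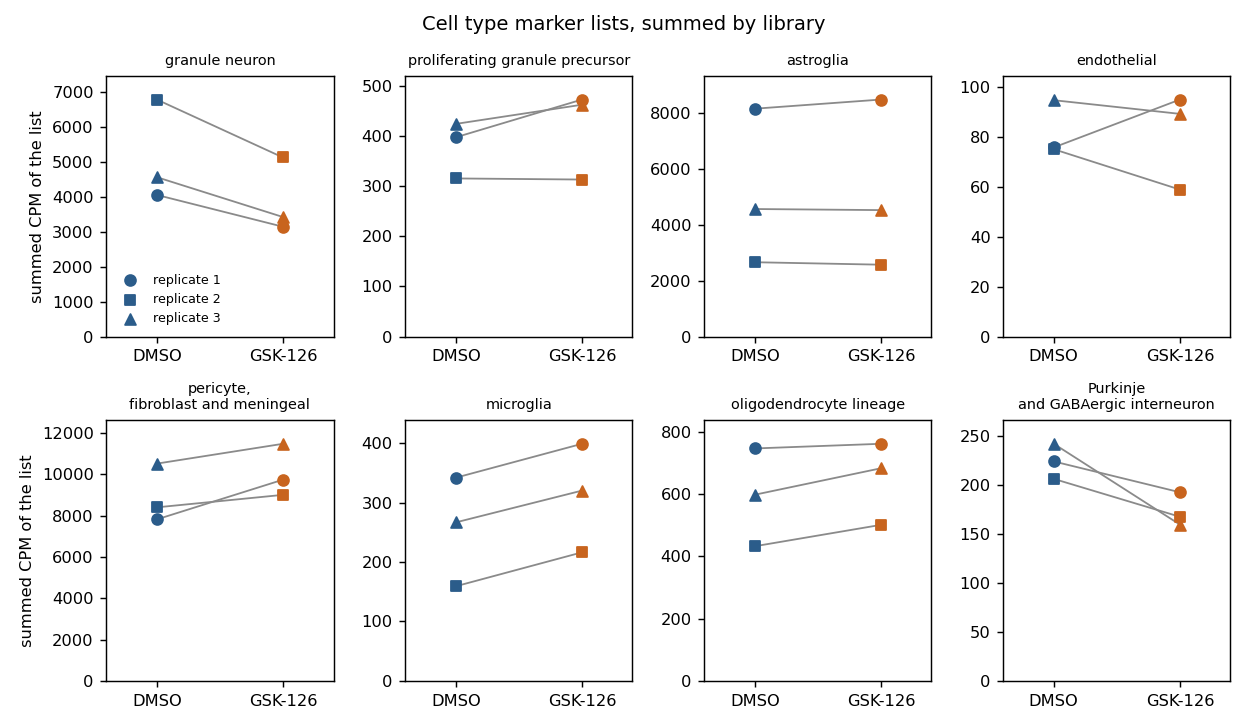
Summed CPM of 8 cell type marker lists in each library, with lines between libraries of the same replicate number. The granule neuron and GABAergic sums fall and the fibroblast, microglial and oligodendrocyte sums rise in every pair, while the astroglial sum differs mainly between replicate numbers.

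A wider set of 76 genes of the same pathway was read in the same way, and 50 of them passed the filter. Of these 5 rose and 5 fell, against the 3.35% and 5.09% of all genes called in each direction, and their median log2 fold change was -0.03. Among 6 other targets 1 rose and 5 were not called. Tgfbi, Msx1 and Msx2 had log2 fold changes of 0.17, 0.17 and 0.25. Hey1 and Atoh8 were at -0.21 each and were lower in all 3 pairs. The target that rose was Ccn2, for connective tissue growth factor, a common readout of TGF-beta signalling. It was at 171, 236 and 240 CPM with DMSO and 292, 318 and 325 CPM with GSK-126, without overlap (log2 0.55, SE 0.08, adjusted p = 0.000124, edgeR). It is also made by fibroblasts and smooth muscle cells, and the log2 fold changes of the 10 pericyte, fibroblast and meningeal genes had their median at 0.19, running from 0.09 for Foxc1 to 0.52 for Tagln.

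Thbs1, for thrombospondin-1, which can activate latent TGF-beta, rose from 140, 238 and 342 CPM to 248, 315 and 419 CPM (log2 fold change 0.50, SE 0.09, adjusted p = 0.000802, edgeR). The secreted ligand gene Gdf10 rose as well, from 11.7, 6.71 and 8.0 CPM to 21.8, 9.26 and 13.5 CPM (log2 0.72, SE 0.18, adjusted p = 0.0146, edgeR), 1 of 6 other ligands tested. The remaining rises were of Nbl1, a BMP antagonist gene, and Lrrc32, whose product holds latent TGF-beta on the cell surface. They bring the other extracellular modulators to 3 rises and 2 falls among 19 tested.

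The largest fall was of Fstl4, of the Follistatin-like family, from 18.8, 51.1 and 30.6 CPM with DMSO to 8.26, 23.6 and 12.3 CPM with GSK-126 (log2 fold change -1.20, SE 0.14, adjusted p = 9.21e-06, edgeR). Bmp1, which despite its name encodes a protease that cleaves procollagens and Chordin, fell by 0.37 on the log2 scale (SE 0.07, adjusted p = 0.0016, edgeR). Among 16 other intracellular regulators 0 rose and 3 fell. Ski, for a repressor that binds Smads, fell by 0.35 (SE 0.08, adjusted p = 0.00552, edgeR), and Nedd4l, for a ubiquitin ligase that acts on activated Smads, fell by 0.43 (SE 0.08, adjusted p = 0.0012, edgeR). The third was Zfyve9, for the anchor protein SARA, which presents Smad2 and Smad3 to the receptor, at -0.36 (SE 0.09, adjusted p = 0.011, edgeR).

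**Figure D5:**
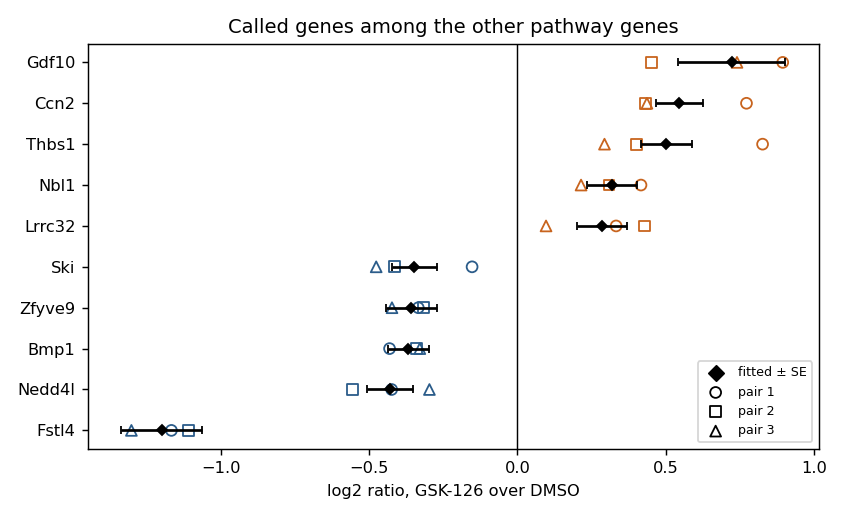
Log2 ratios of GSK-126 over DMSO for the 10 called genes among the 76 other pathway genes. Diamonds give the fitted value with its standard error and open markers the 3 pairs, all of which lie on the same side of 0 as the fit.

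Some of these genes share exon sequence with a transcript on the opposite strand, and whether the counting used strand is not given in the sources used here. Among the called members the shared stretch was 89 bases for Bmp4, 124 for Tgfb2, 171 for Id4 and 764 for Ltbp2, at most 9.34% of the exon length, and the partners had at most 81 counts in a library. The overlap was larger for Ccn2, at 665 bases or 23.2% of its exon length, with Gm15270, which had 608 to 1534 counts.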

How the data were processed

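RNA of CGN cultures was enriched for poly(A) and sequenced as paired ends by a company. Per the submitters' processing notes and the methods, reads were checked with FastQC, trimmed with Trimmomatic 0.38, aligned to mm10 with STAR 2.7.2b and counted on exons with HTSeq. The authors deposited raw counts per gene for each library, with no normalization. The methods name a Gencode annotation of GRCm38.p4, and its release number and the strand setting are not given in the sources used here. The 55341 symbols were all in GENCODE M21, which gave identifiers and coordinates (GRCm38). Lines that name no gene held 58.7% to 60.7% of counts and were left out.

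Counts were tested in R 4.3.3 with edgeR 4.0.16 (filterByExpr, TMM, glmQLFit and glmQLFTest, Benjamini-Hochberg adjustment), two-sided, with replicate number as a block. The labels number replicates 1 to 3 in both groups, which is the pairing used. Deviations from the group means correlated at 0.561, 0.634 and 0.487 for libraries with the same number and at most 0.00638 for others. Such deviations sum to 0 within a group for each gene, so the low values for others are in part built in. Libraries of a group differed by more than sampling noise (chi-square per degree of freedom 12.9 or more). Alternatives were no block, DESeq2 1.42.0, other scalings, other filters, a stricter threshold and each pair left out. Log2 ratios of pairs used a prior count of 2. The fits were tested on simulated counts that kept the differences between replicate numbers. With the block, 50 of 100 genes changed 1.5-fold and 79 of 100 changed 2-fold were recovered, with 7 false calls. Without the block, 0 of either set were recovered. A gene not called may thus still have changed by such an amount.

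The members and all lists were chosen with earlier results of these data known. Every member is accounted for, and members called, or set against a called member of the same role, are given in full. Other pathway genes named are those called, the 8 with the smallest adjusted p with values and the rest by name. The other targets that were not called are given by their fold changes. The result of 1 gene of that list is not reported here.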

Additional observations from a re-analysis of the deposited data

How the results depend on the processing

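The calls depend on the pairing. With no replicate block, edgeR called 0 genes in either direction, 0 members and 0 other pathway genes, and DESeq2 without the block called 20 genes higher and 1 lower, 0 members and 0 other pathway genes. The 42 log2 fold changes kept their sign in both fits. DESeq2 with the block called 369 genes, 3 members and 3 other pathway genes higher. An adjusted p under 0.01 left 242 genes higher and 474 lower, 3 members (Inhba, Ltbp2 and Id2) and 2 other pathway genes higher. The 7 called members were called under each other scaling and each filter run with the block, and with no filter 1 member, Bmpr2, was called lower and Nog and Fstl1 were called higher. The cause of these differences was not tested.

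When a pair was left out, genes called higher ranged from 337 (without replicate 2) to 558 and genes called lower from 496 (without replicate 2) to 719. Members called higher ranged from 3 (without replicate 1 or 2) to 6 and members called lower from 0 to 1, Bmpr2 without replicate 3. Other pathway genes called higher ranged from 2 (without replicate 1) to 5 and those called lower from 3 (without replicate 3) to 5.

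Sign changes were seen only for members not called, whose fitted values lay between -0.03 and 0.09. The log2 fold change of Smad4, 0.00 in the report, was 0.00397 with DESeq2 and the block, 0.00353 with DESeq2 size factors, 0.0327 with upper-quartile scaling, 0.033 with total counts, 0.0136 with no filter and 0.0158 with at least 10 counts in every library. That of Bmpr1b was 0.00511 with upper-quartile scaling and 0.00486 with total counts. With a pair left out, the log2 fold changes ranged from -0.31 to 0.30 for Bmp2, from -0.0279 to 0.10 for Bmp7, from -0.24 to 0.18 for Bmpr1b, from -0.0900 to 0.12 for Acvr1, from -0.0237 to 0.26 for Acvrl1, from -0.11 to 0.15 for Smad4, from -0.0559 to 0.13 for Smad5 and from -0.00672 to 0.12 for Smad7. Grem1 and Fst had the fewest counts of the 42 members (1 to 23 and 2 to 28 a library) and the largest standard errors (0.58 and 0.48).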
